A study of Mus musculus with 6 samples.

Results

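The genes described here encode the conjugation enzymes of the liver: UDP-glucuronosyltransferases, sulfotransferases, methyltransferases and acetyltransferases, with the enzymes that make their cofactors, the epoxide hydrolases and the molybdenum hydroxylases. They are 34 genes of a fixed list, matched by Ensembl identifier to the 41388 rows of the deposited count table, and all 34 had a row. Of these, 33 passed the filter on low counts, among 12988 genes that did. The gene below the filter was Ugt2b38.

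The RNA came from livers of 6-week-old mice, strain C57BL x 129S6/SvEv, and was read in 54-base reads. Each genotype, wild type and Atp7b-/-, had 3 libraries. Atp7b is the copper-exporting ATPase mutated in Wilson disease, and the labels name no other allele. All animals received the same diet, stated to hold 16 ppm copper, 100 ppm zinc and 235 ppm iron. Paired-end reads were made for wild type replicate 1 and Atp7b-/- replicate 3 and single reads for the other 4. The label male stands on wild type replicate 1 and on Atp7b-/- replicates 1 and 2, and female on the remaining 3. Separate animals for the libraries are not stated in the labels, although wild type replicates 1 and 2 differed in sex chromosome genes, and the p-values measure only the spread between these libraries.

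Conjugation attaches a polar group to a drug, a hormone, bilirubin or a bile acid, so that transporters can pass it into bile or blood. Glucuronosyltransferases sit in the endoplasmic reticulum and take glucuronic acid from UDP-glucuronic acid, while cytosolic sulfotransferases take sulfate from the donor PAPS. Epoxide hydrolases open reactive epoxides with water. Aldehyde oxidases and xanthine dehydrogenase oxidise aldehydes and nitrogen heterocycles at a molybdenum cofactor. In the liver these genes are known targets of the xenobiotic receptors CAR, PXR and AHR and of the oxidative stress factor NRF2, and several differ between the sexes.

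Total counts ranged from 5919389 to 25973968 per library. Every pair of libraries differed by more than counting noise, with a chi-square per gene of 33.9 or more, and all 6 were kept apart. Atp7b itself was at 25.3, 85.2 and 59.7 CPM (a gene's counts relative to the TMM-adjusted library total) in wild type replicates 1 to 3 and at 19.2, 13.8 and 13.3 CPM in Atp7b-/- replicates 1 to 3. The change was -1.73 in log2 units (SE 0.30, adjusted p = 0.02 by edgeR's quasi-likelihood test). The lowest wild type and the highest Atp7b-/- value were 25.3 and 19.2 CPM. The call was lost when wild type replicate 3 or either single-end Atp7b-/- library was left out (adjusted p from 0.0664 to 0.0969). Hepatocyte markers such as Alb, Ttr and Apob were abundant in every library. The 9 listed markers in the table summed to 85700 to 121000 CPM in wild type and to 63700 to 82700 CPM in Atp7b-/- liver. Every Atp7b-/- sum was thus below every wild type sum. EdgeR called none of the 9, with 3 log2 fold changes above 0 and 6 below. The part of this difference in the levels of the conjugation genes was not tested. The labelled sexes did not match the sex chromosome genes in 2 libraries. Wild type replicate 3 and Atp7b-/- replicate 3, both labelled female, had the Y-linked Ddx3y at 28.0 and 126 CPM and the female-specific RNA Xist at 17.4 and 0.482 CPM. Wild type replicate 2 alone had Xist at 371 CPM with Ddx3y at 0.34 CPM. By these genes the genotypes were not balanced for sex, and the part of this in the genotype comparison was not tested. Genes called between genotypes and named below are also given with each library left out.

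Values per library are given in the order wild type replicates 1, 2 and 3, then Atp7b-/- replicates 1, 2 and 3, so that the first and the last value of each series of 6 are the paired-end libraries. Genotypes were compared with layout as a term in the model, with Benjamini-Hochberg adjustment over all 12988 genes, and genes with an adjusted p under 0.05 are termed called. Of the 33 tested conjugation genes 1 was called higher in Atp7b-/- liver (Aox1) and 1 lower (Inmt), which is 6.06% of them. The share of all tested genes called was 2.49%, or 1.9% higher and 0.585% lower. DESeq2 called 5.93% of all tested genes (3.6% higher and 2.33% lower) and 8 of the 33: Aox1, Ephx1, Nat8, Sult1b1, Ugdh and Ugt1a6b were higher and Inmt and Ugt1a6a lower. At an unadjusted p under 0.05 there were 11 of 33 genes, 7 higher and 4 lower (33.3%), beside 14.5% of all tested genes, 7.8% higher and 6.74% lower. The log2 fold change was above 0 for 16 of 33 conjugation genes and for 49.1% of all genes, and the median was -0.01 in both. The absolute log2 fold change had a median of 0.60 among the conjugation genes and of 0.27 among all tested genes. For 4 of the 33 genes (12.1%) and 8.51% of all tested genes no library of one genotype lay within the range of the other. These were Aox1, Ephx1 and Nat8, higher in Atp7b-/- liver (5.23% of all tested genes), and Ugt1a1, lower (3.28%).

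**Figure D1:**
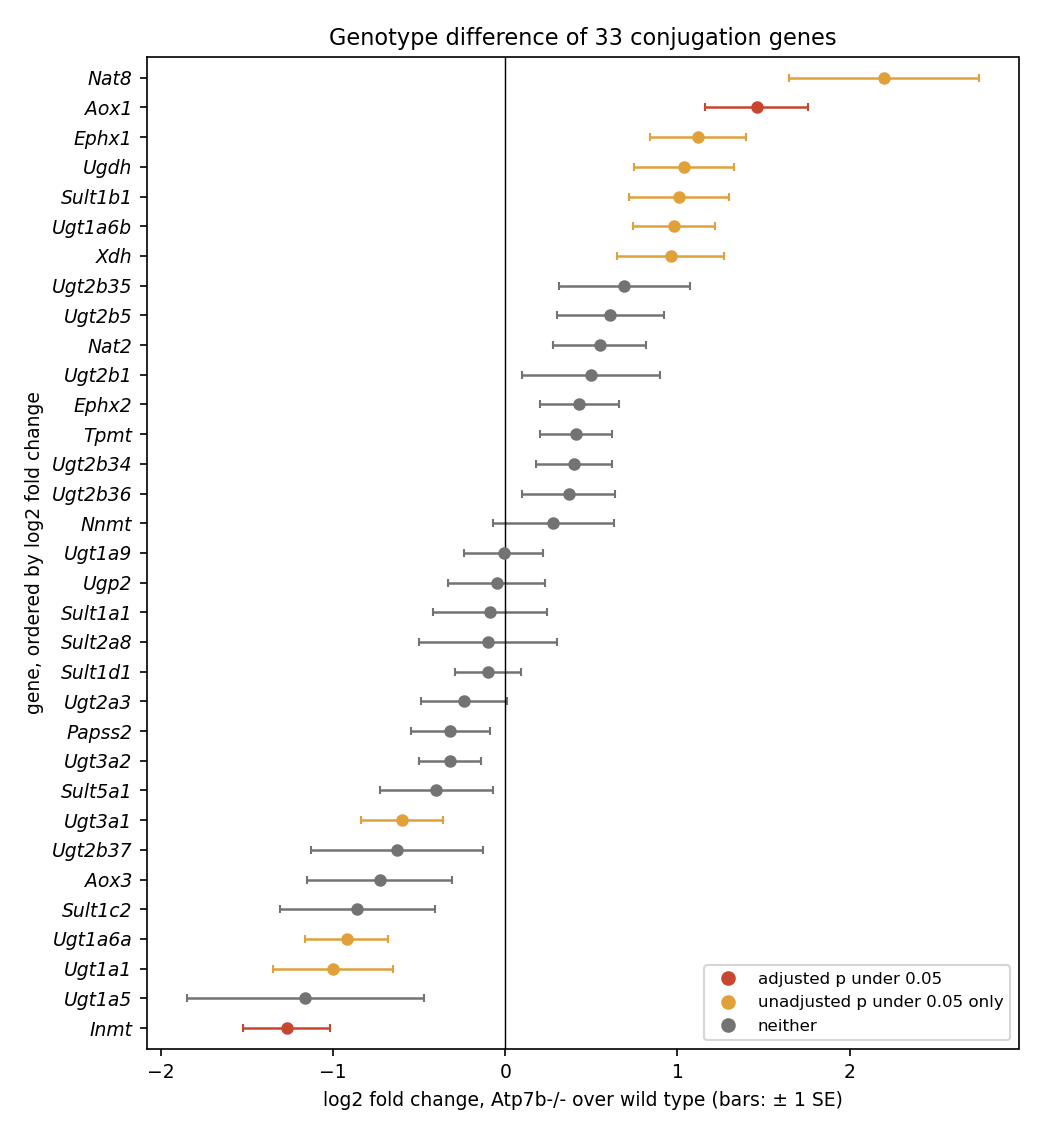
Log2 fold change of Atp7b-/- over wild type for the 33 tested genes, from the model with layout and genotype, ordered by size; bars are 1 standard error. Aox1 at 1.46 and Inmt at -1.27 (red) passed the adjusted threshold, and 9 others (orange) passed only unadjusted.

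Aox1 encodes aldehyde oxidase 1, which oxidises aldehydes and many heterocyclic drugs. It lies on the plus strand of chromosome 1 (chr1:58029931-58106413, GRCm38). Its level was 223, 65.2 and 132 CPM in wild type and 364, 252 and 479 CPM in Atp7b-/- liver. Every Atp7b-/- library was above every wild type library, and the paired-end library was the highest of each genotype. Aox1 rose 2.76-fold in the model (log2 1.46, SE 0.30, adjusted p = 0.0449 by edgeR). The call was kept without wild type replicate 2 (log2 1.18, adjusted p = 0.0468) and without wild type replicate 3 (1.73, 0.0496). Leaving out any 1 of the other 4 libraries ended it, with adjusted p between 0.0692 and 0.129, while the log2 fold change stayed between 1.26 and 1.66.

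Inmt encodes indolethylamine N-methyltransferase, which methylates tryptamine and other amines. It lies on the minus strand of chromosome 6 (chr6:55170626-55175043). The level was 260.1, 533 and 793 CPM in wild type and 208, 327 and 114 CPM in Atp7b-/- liver. Within each layout the Atp7b-/- libraries were lower, but Atp7b-/- replicate 2 (single-end) lay above wild type replicate 1 (paired-end), so the ranges overlap. Inmt fell 2.41-fold (log2 -1.27, SE 0.25, adjusted p = 0.0331 by edgeR). Without wild type replicate 2 the log2 fold change was -1.40 (adjusted p = 0.0194). The call was lost when any 1 of the other 5 libraries was left out, with adjusted p from 0.0549 to 0.163 and log2 fold changes from -1.45 to -1.08. In a fit without the layout term neither Aox1 (log2 1.38) nor Inmt (log2 -1.29) was called, each with an adjusted p of 1 in edgeR.

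The sequences upstream of these 2 genes were read from RefSeq (GRCm38.p6) and searched on both strands for 4 short motifs in the 250 bases before the start. They are shown because the 2 genes moved in opposite directions. Each is printed 5′ to 3′ on the gene's strand, up to the first base of the gene in the GENCODE annotation. Capitals mark the match in Aox1, the dioxin response element core GCGTG on the opposite strand, at -137 from the RefSeq start.
Aox1 (chr1:58029719-58029930): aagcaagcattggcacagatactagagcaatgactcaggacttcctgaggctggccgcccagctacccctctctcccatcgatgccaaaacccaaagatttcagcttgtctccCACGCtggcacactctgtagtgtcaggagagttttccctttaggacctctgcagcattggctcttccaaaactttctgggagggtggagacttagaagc
Inmt (chr6:55175044-55175240): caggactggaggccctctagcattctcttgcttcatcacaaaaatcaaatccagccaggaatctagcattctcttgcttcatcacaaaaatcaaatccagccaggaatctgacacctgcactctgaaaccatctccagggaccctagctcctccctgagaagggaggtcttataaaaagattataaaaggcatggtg

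The promoter table held 28 of the 34 conjugation genes and 32851 promoters in all. A conjugation gene was counted if any of its promoters held the motif, while the share of all is per promoter. The paired shares below therefore differ in unit. GCGTG was in 8 of the 28 (28.57%) and in 28.16% of all promoters. The antioxidant response element core TGACNNNGC, a binding site of NRF2, was in 1 of the 28, Ugdh (3.57%), and in 10.16% of all. The HNF1 site core GTTAATNAT was in Ugt1a1, Ugt1a9 and Sult1d1 (10.71%) and in 0.74% of all, and the nuclear receptor hexamer AGGTCA in 9 genes (32.14%) and in 14.02% of all. None of the 4 motifs contains another. Of the 9 genes with AGGTCA, 5 were Ugt2b genes, namely Ugt2b5, Ugt2b35, Ugt2b36, Ugt2b37 and Ugt2b38. The window of Inmt held none of the 4.

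**Figure D2:**
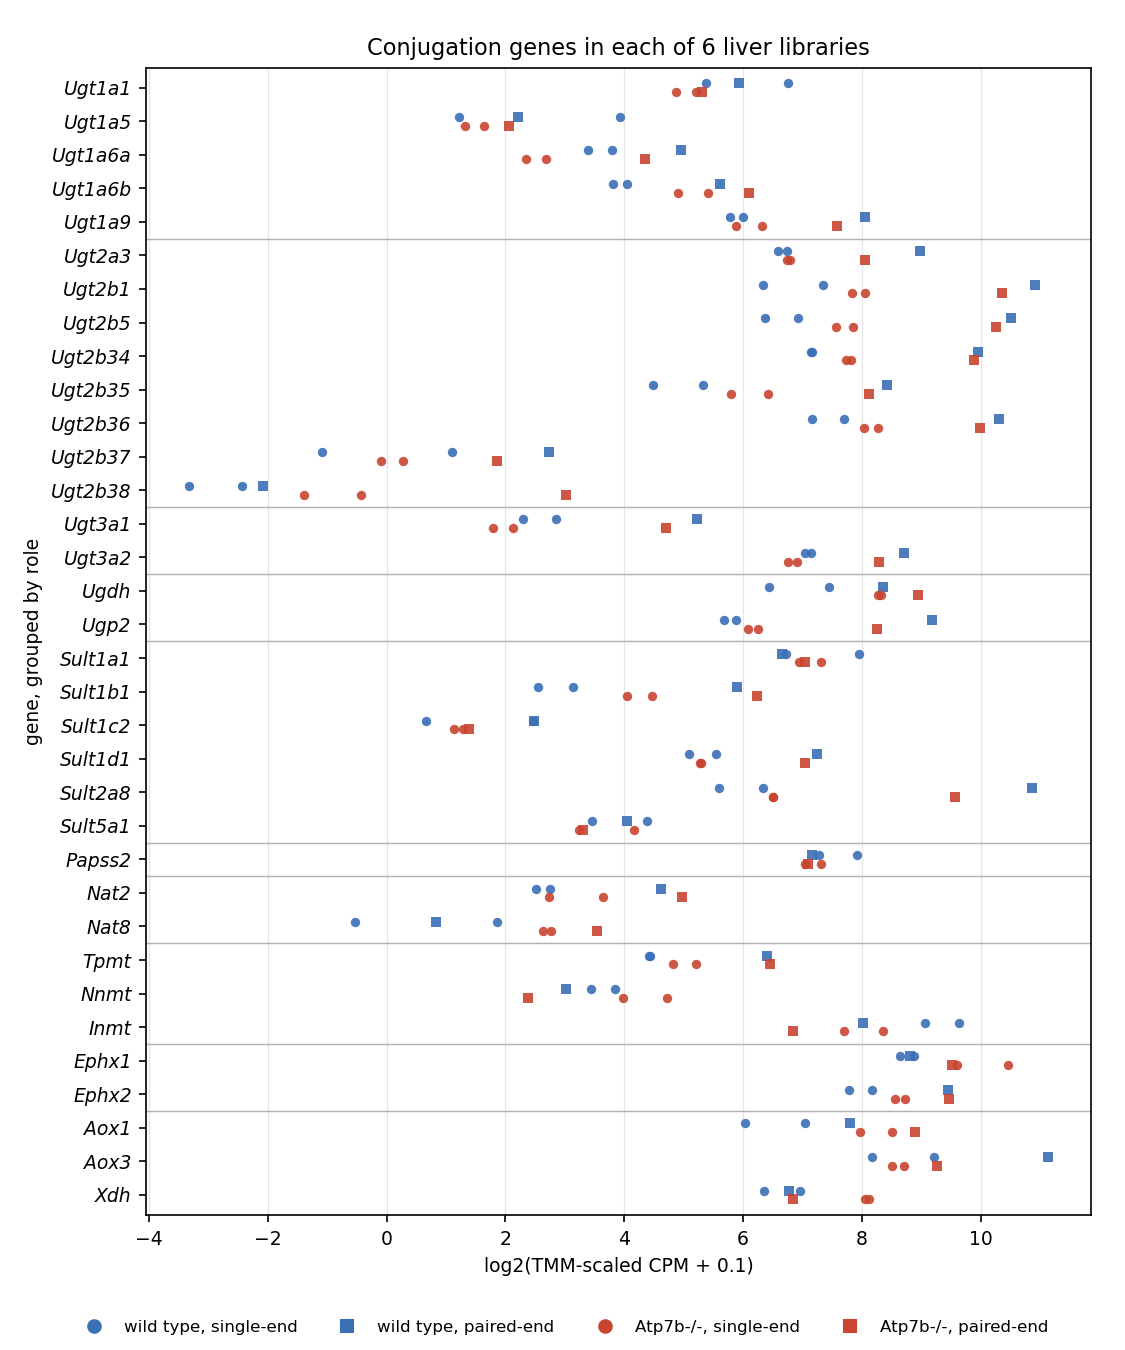
Level of each of the 34 genes in each library, as log2 of CPM plus 0.1; circles are single-end and squares paired-end libraries, blue wild type and red Atp7b-/-. For most genes of family 2 and for Sult2a8 the squares of both genotypes lie far to the right of the circles.

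Neither of the other molybdenum hydroxylases passed the test. Aox3, the neighbour of Aox1 on chromosome 1 and the most abundant of the 3 per kilobase of exon in both layouts (mean 59.4 CPM per kb in single-end and 205 in paired-end libraries, against 23.4 and 40.4 for Aox1), was at 2258, 289.5 and 597 CPM in wild type and 418, 365 and 618 CPM in Atp7b-/- liver. The 3 Atp7b-/- values lay within the wild type range, and the log2 fold change was -0.73 (SE 0.42, adjusted p = 0.495). Xdh encodes xanthine dehydrogenase, which makes uric acid. It was at 110, 82.0 and 124 CPM in wild type and 279.9, 265 and 115 CPM in Atp7b-/- liver. Both single-end Atp7b-/- libraries lay above all wild type libraries, while the paired-end one lay among them. The log2 fold change of Xdh was 0.96 (SE 0.31), which did not pass adjustment over all genes in edgeR (adjusted p = 0.181). Mocos, the sulfurase that activates the cofactor of these enzymes, had the smallest p among the 7 tested of 11 listed symbols for cofactor genes and other aldehyde oxidases. EdgeR called none of the 7 (1 unadjusted) and DESeq2 called Mocos; 4 were above 0 and 3 below, with a median log2 fold change of 0.15. Mocos was at 61.3, 61.0 and 69.1 CPM in wild type and 114, 129 and 85.5 CPM in Atp7b-/- liver (log2 0.76, SE 0.19, adjusted p = 0.0851 by edgeR). The next gene by p, Marc2, differed by -0.48 in log2 units (adjusted p = 0.366).

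The 2 epoxide hydrolases were both abundant. Ephx1, the microsomal enzyme that detoxifies epoxides of drugs and carcinogens, had the highest level per kilobase of exon of all 34 genes in the single-end libraries (mean 391 CPM per kb). In the paired-end libraries, at 303 CPM per kb, it was below Ugt2b5, Ugt2b1, Ugt2b36 and Sult2a8. It was at 449, 398 and 473 CPM in wild type and 1403, 775 and 733 CPM in Atp7b-/- liver. The ranges did not overlap, and the wild type values were close together. The log2 fold change was 1.12 (SE 0.28), and edgeR's adjusted p of 0.0801 missed the threshold. No leave-out brought a call for Ephx1, with adjusted p from 0.0819 to 0.274. Ephx2, the soluble hydrolase of fatty acid epoxides, had 404 ± 261 CPM in wild type against 501 ± 178 CPM in Atp7b-/- liver (SD, n = 3; log2 0.43, adjusted p = 0.435 by edgeR).

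**Figure D3:**
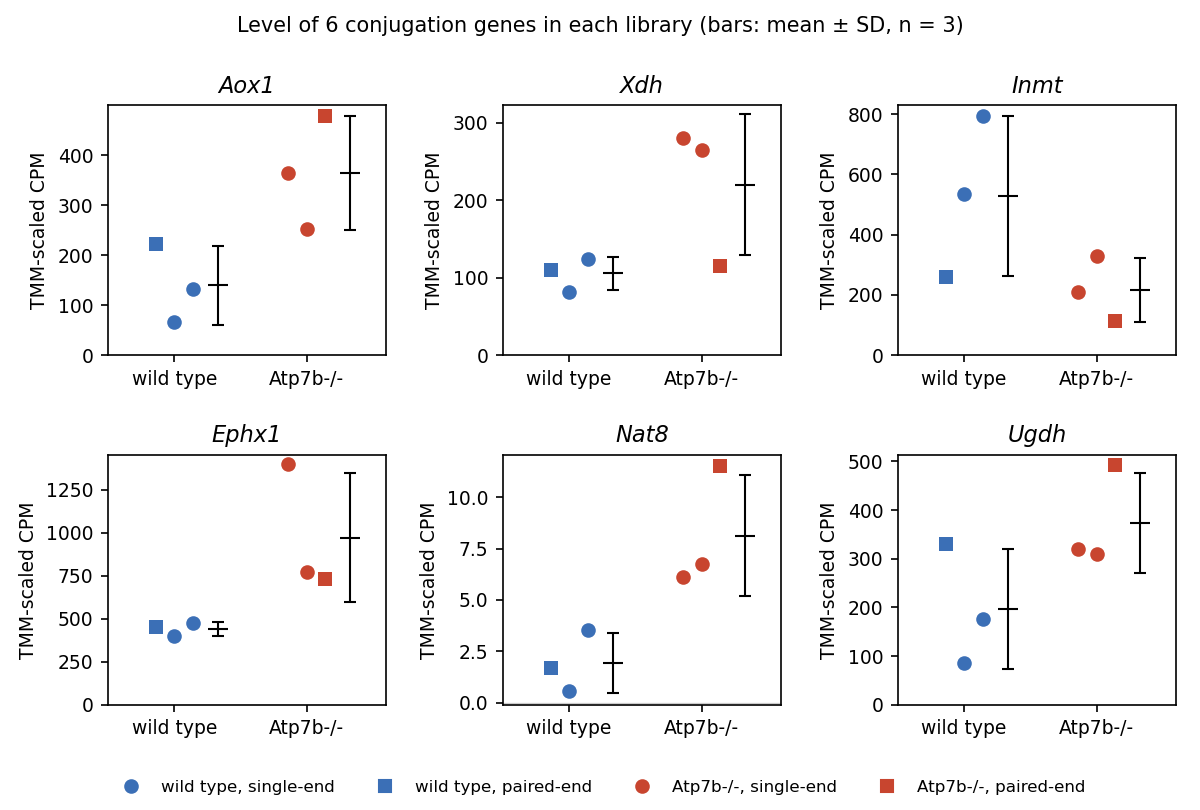
TMM-scaled CPM of 6 genes in each library, with the mean and SD of 3 libraries beside the points; circles are single-end and squares paired-end. Aox1, Ephx1 and Nat8 separate the genotypes fully, while in Xdh the paired-end Atp7b-/- library (115 CPM) lies among the wild type libraries.

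Nat8 encodes an N-acetyltransferase of the endoplasmic reticulum that acetylates cysteine conjugates, the last step towards mercapturic acids. Its levels were low, at 1.69, 0.595 and 3.52 CPM in wild type and 6.12, 6.74 and 11.5 CPM in Atp7b-/- liver, and every Atp7b-/- value was above every wild type value. The log2 fold change of 2.20 (SE 0.55) was the highest of the 33 genes, with an adjusted p of 0.0945 in edgeR. Without wild type replicate 3, the highest of its group, edgeR called Nat8 (log2 3.04, adjusted p = 0.00552). The wild type counts left in that fit were 37 and 7, the second below the minimum of 10, so that call adds no support. Leaving out any other library brought no call for Nat8, with adjusted p from 0.1 to 0.334 in edgeR and log2 fold changes from 1.79 to 2.32. Nat2, the arylamine N-acetyltransferase, was at 24.6, 5.61 and 6.67 CPM in wild type and 12.4, 6.59 and 31.4 CPM in Atp7b-/- liver (log2 0.55, SE 0.27, adjusted p = 0.409). Per kilobase of exon Nat2 was above Nat8 in both layouts, with means of 5.14 against 3.78 CPM per kb in single-end and 18.4 against 5.87 in paired-end libraries.

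Nat8f5, a relative of Nat8, was the 1 gene called among the other listed methyl-, acetyl- and acyltransferases and hydrolases. Its levels were 0.411, 0 and 0.556 CPM in wild type and 2.57, 4.63 and 10 CPM in Atp7b-/- liver (log2 4.41, SE 0.69, adjusted p = 0.012 by edgeR). Its wild type counts of 9, 0 and 3 were below the minimum of 10, so that it was tested only through the Atp7b-/- libraries and its call adds no support. The call was lost without wild type replicate 1 (adjusted p = 0.141) and without Atp7b-/- replicate 3 (0.173). Of the 16 genes of that list that were tested, 1 was called higher, 0 lower (3 at an unadjusted p under 0.05), and 15 did not pass; the median log2 fold change was 0.15. Nat8f1 was at 169, 175 and 176 CPM in wild type and 134, 90.6 and 94.7 CPM in Atp7b-/- liver, with a log2 fold change at -0.70 (adjusted p = 0.141 by edgeR). Nat8 is also a gene of the kidney, so the kidney markers are given beside it. Of 8 proximal tubule and kidney markers 7 had a count, Slc12a1 was at 0 in every library, and the summed level was 0.935 to 2.41 CPM in wild type against 5.05 to 13.5 CPM in Atp7b-/- liver. Without Lrp2 the other 7 summed to between 0.425 and 1.67 CPM in the wild type libraries, to 0.0583 and 0.14 CPM in the single-end Atp7b-/- libraries and to 5.82 CPM in the paired-end one, so that apart from Lrp2 the list was not higher in all Atp7b-/- libraries. Lrp2, which encodes the endocytic receptor megalin, was the 1 kidney marker that passed the filter. It was at 1.33, 0.51 and 0.741 CPM in wild type and 6.76, 4.91 and 7.68 CPM in Atp7b-/- liver (log2 2.94, SE 0.39, adjusted p = 0.00483 by edgeR). Lrp2 stayed called without any 1 library (adjusted p at most 0.0451 by edgeR). With wild type counts of 29, 6 and 4 it passed the filter only through the Atp7b-/- libraries, so these calls add no support. Of the other marker lists, edgeR called Cdhr2 of the enterocyte list (log2 3.58, adjusted p = 0.00885) and Cdh1 of the periportal list (log2 1.13, adjusted p = 0.0219), both higher. Cdh1 went against its list, in which 8 of 10 markers were below 0, with a median log2 fold change of -0.31. Only 3 of the 8 enterocyte markers were tested, 2 above 0 and 1 below. Cdhr2 had wild type counts of 4, 8 and 8 and passed the filter only through the Atp7b-/- libraries, so its call adds no support. Cdhr2 lost its call without wild type replicate 1 or Atp7b-/- replicate 3 (adjusted p = 0.0583 and 0.0708), and Cdh1 without any 1 of the other 4 libraries (0.0656 to 0.0784). The part of these markers in the Nat8 values was not tested.

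Among the methyltransferases Inmt was the most abundant per kilobase of exon in both layouts (mean 291 CPM per kb in single-end and 117 in paired-end libraries). The order of the other two depended on layout, with Tpmt at 7.34 and Nnmt at 10.6 CPM per kb in single-end and at 23.3 and 4.15 in paired-end libraries. Tpmt methylates thiopurine drugs and had 42.5 ± 36.4 CPM in wild type against 50.9 ± 31.9 CPM in Atp7b-/- liver (SD, n = 3). Nnmt methylates nicotinamide and had 11.0 ± 3.15 and 15.7 ± 10.6 CPM. Their log2 fold changes were 0.41 and 0.28, with adjusted p of 0.415 and 0.782 in edgeR. Inmt and Nnmt were the only conjugation genes called lower in the paired-end than in the single-end libraries. Fewer cells of a type and less RNA per cell cannot be told apart in bulk RNA. Summed levels of the pericentral hepatocyte markers were 8590 to 12700 CPM in wild type against 8410 to 9400 CPM in Atp7b-/- liver, and those of the periportal markers 6880 to 8620 and 4040 to 7890 CPM.

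The UGT1A enzymes conjugate bilirubin, phenols and oestrogens. Their genes form 1 nested locus on the plus strand of chromosome 1, in which 9 genes each have a first coding exon of their own and share coding exons 2 to 5 (132, 88, 220 and 295 coding bases, from chr1:88215044-88215175 to chr1:88218127-88218421). A read in the shared exons lies in all 9 genes. Ugt1a1 has only 385 exon bases outside the exons of every other annotated gene, fewer than the 870 coding bases of its first exon. Part of that exon thus also lies in another annotated gene. Of all 54-base windows in the transcripts of Ugt1a1, 80.0% also occur in another gene, and the share was 63.9% for Ugt1a5, 51.9% for Ugt1a6a, 78.9% for Ugt1a6b and 61.4% for Ugt1a9. The counts of single Ugt1a genes therefore depend on how shared reads were assigned, and those settings are not stated in the sources used here. Ugt1a8, which has the same shared exons, had counts of only 7, 4, 2, 5, 5 and 3. Reads in the shared exons were thus not added to every gene. The levels per kilobase given for Ugt1a genes still include the shared exons in the length.

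Ugt1a6a and Ugt1a6b are the closest pair. Their first coding exons of 858 bases each are identical at 832 positions (96.97%), and 363 of the 805 windows of 54 bases in this exon of Ugt1a6a (45.09%) also occur in that of Ugt1a6b. The first coding exons of the other Ugt1a pairs among the 5 genes shared no such window. The stretch of coding bases 241 to 360 is shown because it holds 15 of the 26 differing positions, which are in capitals; within this exon only reads that cover such positions differ between the 2 genes.
Ugt1a6a (chr1:88138714-88138833, plus strand, GRCm38): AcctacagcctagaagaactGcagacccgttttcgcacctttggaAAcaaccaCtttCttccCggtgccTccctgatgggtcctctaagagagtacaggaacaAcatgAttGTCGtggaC
Ugt1a6b (chr1:88107182-88107301, plus strand, GRCm38): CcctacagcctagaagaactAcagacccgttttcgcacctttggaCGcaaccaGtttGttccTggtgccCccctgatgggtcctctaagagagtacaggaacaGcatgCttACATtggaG

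The fold changes of this pair had opposite signs, and neither passed the threshold in edgeR. Ugt1a6a was at 30.8, 13.8 and 10.4 CPM in wild type and 5.01, 6.31 and 20.4 CPM in Atp7b-/- liver (log2 -0.92, SE 0.24, adjusted p = 0.0995 by edgeR). Ugt1a6b was at 48.9, 14 and 16.5 CPM in wild type and 42.3, 29.7 and 68.7 CPM in Atp7b-/- liver (log2 0.98, SE 0.24, adjusted p = 0.0764). Within the single-end libraries and within the paired-end ones, Ugt1a6a was lower and Ugt1a6b higher in Atp7b-/- liver. Of the counts on either gene, Ugt1a6b held 61.3%, 50.5% and 61.4% in wild type and 89.4%, 82.5% and 77.1% in Atp7b-/- liver, so that the shares of the genotypes did not overlap. The summed level of both genes was 79.7, 27.8 and 26.9 CPM in wild type and 47.3, 36.1 and 89.1 CPM in Atp7b-/- liver, with ranges that overlap. With the counts of both added into 1 row, a fit chosen after the data were seen, the log2 fold change was 0.46 (SE 0.20, adjusted p = 0.343 by edgeR).

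**Figure D4:**
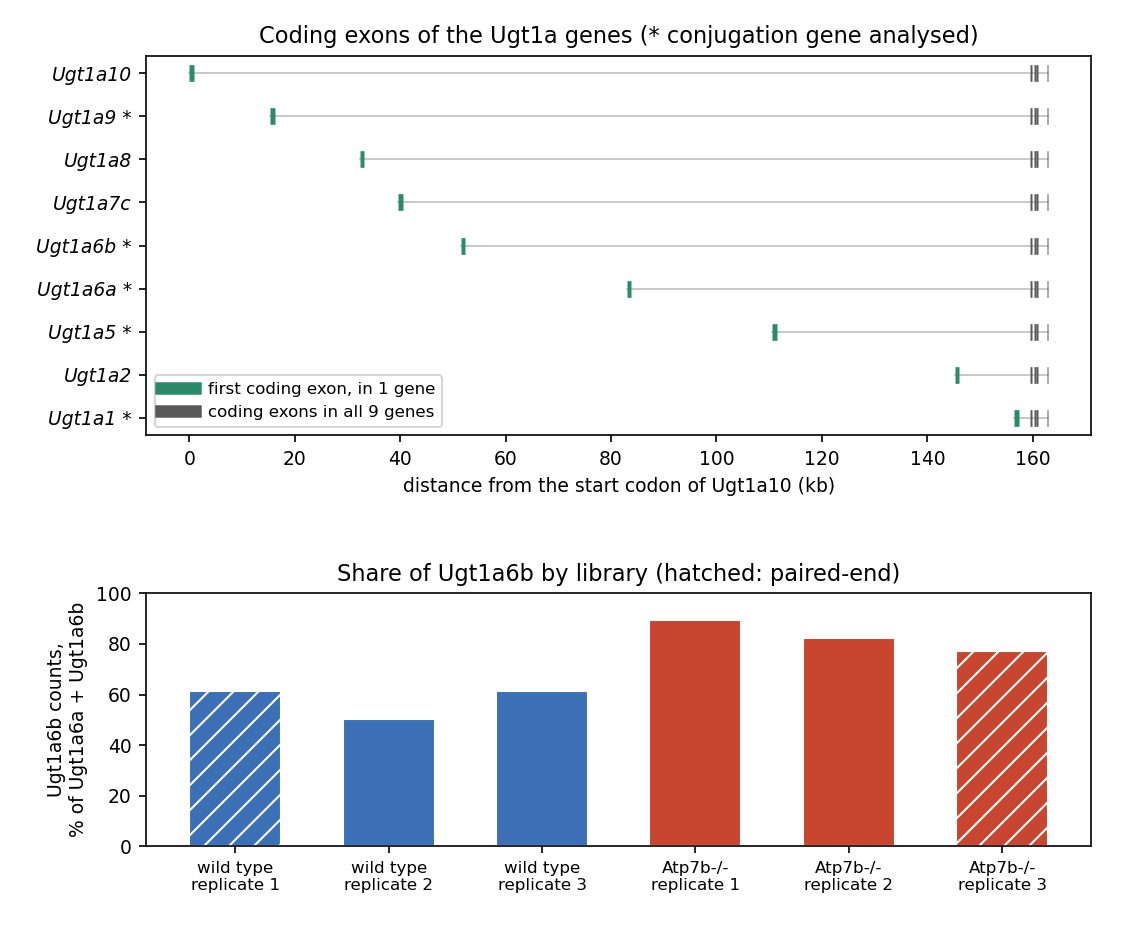
Top: coding exons of the 9 Ugt1a genes by distance in kb from the start codon of Ugt1a10; green is a gene's own first exon, grey the exons common to all 9, and exons under 250 bases are drawn 250 bases wide. Bottom: counts of Ugt1a6b as a percentage of those of Ugt1a6a and Ugt1a6b, which are 50.5% to 61.4% in wild type and 77.1% to 89.4% in Atp7b-/- libraries.

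Ugt1a1, the enzyme that glucuronidates bilirubin, was at 60.7, 109 and 41.7 CPM in wild type and 29.2, 36.8 and 39.7 CPM in Atp7b-/- liver. The ranges of the genotypes were separated by 41.7 against 39.7 CPM. The log2 fold change was -1.0 (SE 0.35), with an adjusted p of 0.238 in edgeR, and it was -0.46 without wild type replicate 2, the highest library. Ugt1a9, a major enzyme for phenols, was the most abundant Ugt1a gene per kilobase of exon in both layouts (mean 29.4 CPM per kb in single-end and 104 in paired-end libraries). The same CPM were also divided by only the exon bases that lie in no other gene, 385 for Ugt1a1 and 879 for Ugt1a9. Ugt1a1 was then the most abundant, with a mean over all libraries of 137 CPM per kb, against 136 for Ugt1a9. Ugt1a9 was at 265, 54.7 and 64.3 CPM in wild type and 58.7, 80.0 and 193 CPM in Atp7b-/- liver (log2 -0.01, SE 0.23, adjusted p = 0.992). Ugt1a5 had 7.32 ± 6.93 CPM in wild type against 3.17 ± 0.865 CPM in Atp7b-/- liver (SD, n = 3). Its log2 fold change of -1.16 had an adjusted p of 0.513 in edgeR. Over the 5 genes, 1 log2 fold change was above 0 and 4 were below, with a median of -0.92. EdgeR called none of them (3 at an unadjusted p under 0.05), and DESeq2 called Ugt1a6a lower and Ugt1a6b higher.

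The UGT2 genes, whose enzymes conjugate steroids, bile acids and drugs, had a summed level of 6520, 568 and 782 CPM in wild type and 1120, 1170 and 5070 CPM in Atp7b-/- liver. Both paired-end libraries were far above every single-end one. The genes lie in a cluster on chromosome 5, from Ugt2b34 (chr5:86889767-86906937) to Ugt2b38 (chr5:87409942-87424203). EdgeR called none of the 7 tested genes (0 unadjusted) and DESeq2 none; 5 log2 fold changes were above 0 and 2 below, with a median of 0.40. The most abundant per kilobase of exon was Ugt2b36 in the single-end libraries (mean 112 CPM per kb, against 83.9 for Ugt2b5 and 71.8 for Ugt2b1) and Ugt2b5 in the paired-end libraries (725, against 633 for Ugt2b1 and 555 for Ugt2b36). Ugt2b5 was at 1465, 83.1 and 121 CPM in wild type and 231, 189 and 1230 CPM in Atp7b-/- liver (log2 0.61, SE 0.31, adjusted p = 0.413 by edgeR). Both single-end Atp7b-/- libraries were above both single-end wild type ones, and the paired-end library of Atp7b-/- was below that of wild type. Ugt2b1, Ugt2b34, Ugt2b35 and Ugt2b36 showed this same order in both layouts, with log2 fold changes from 0.37 to 0.69 and adjusted p from 0.459 to 0.634. Ugt2a3 had a log2 fold change of -0.24 and the scarce Ugt2b37, at a mean of 1.27 CPM per kb, one of -0.63.

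Ugt2b38 had counts of 3, 1 and 0 in wild type and 11, 2 and 234 in Atp7b-/- liver. Nearly all of its counts came from the paired-end Atp7b-/- library, at 8.06 CPM, while the paired-end wild type library had 0.137 CPM. Its transcripts share 35.1% of their 54-base windows with other genes, most with Ugt2b5, which was abundant in both paired-end libraries. The gene passed the filter and was called higher when wild type replicate 2, wild type replicate 3 or Atp7b-/- replicate 2 was left out, and in the fit with no filter on low counts. With wild type counts of at most 3 it passed the filter only through the Atp7b-/- libraries, so these calls add no support.

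The 2 genes of family 3 encode transferases that use other sugars, such as N-acetylglucosamine for UGT3A1. Ugt3a2 had the higher level in every library, at 418, 142 and 132 CPM in wild type and 120, 109 and 311 CPM in Atp7b-/- liver (log2 -0.32, SE 0.18, adjusted p = 0.479 by edgeR). Ugt3a1 was at 37.3, 7.14 and 4.82 CPM in wild type and 4.26, 3.37 and 25.8 CPM in Atp7b-/- liver. Within each layout the Atp7b-/- values of Ugt3a1 were below those of wild type, with a log2 fold change of -0.60 (SE 0.24) that did not pass adjustment (adjusted p = 0.29 by edgeR).

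UDP-glucuronic acid is made from UDP-glucose, which Ugp2 supplies, by the dehydrogenase Ugdh. Ugdh was at 329.7, 86.5 and 175 CPM in wild type and 320.2, 309 and 492 CPM in Atp7b-/- liver, so that wild type replicate 1 alone overlapped the Atp7b-/- range. Its log2 fold change was 1.04 (SE 0.29), with an adjusted p of 0.125 in edgeR. Ugp2 was at 584, 51.2 and 58.8 CPM in wild type and 67.6, 75.9 and 306 CPM in Atp7b-/- liver (log2 -0.05, SE 0.28, adjusted p = 0.957), and per kilobase of exon it was below Ugdh in the single-end libraries (mean 20.6 against 33 CPM per kb) and above it in the paired-end libraries (145 against 60.9). Of 10 other glucuronidation genes 9 were in the table and 4 were tested. EdgeR called none of them (0 unadjusted), and DESeq2 none. The 2 with the smallest p were Gusb, the lysosomal enzyme that removes glucuronic acid (log2 -0.31, adjusted p = 0.501), and Ugt1a10 (log2 0.49, adjusted p = 0.771).

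EdgeR called none of the 6 sulfotransferase genes (1 unadjusted), and 5 of the log2 fold changes were below 0, with a median of -0.10. Sult1b1, which sulfates thyroid hormones and phenols, was the 1 above 0 and the 1 that DESeq2 called. It was at 59.8, 8.67 and 5.75 CPM in wild type and 22.2, 16.4 and 75 CPM in Atp7b-/- liver. It was higher in Atp7b-/- liver within each layout (log2 1.01, SE 0.29, adjusted p = 0.133 by edgeR). Sult2a8, a bile acid sulfotransferase of the male mouse liver, had the highest level per kilobase of the group in the paired-end libraries (mean 401 CPM per kb of exon, against 77.1 for Sult1a1), while in the single-end libraries Sult1a1 did (105, against 23.6 for Sult2a8). It was at 1871, 48.1 and 81.0 CPM in wild type and 90.4, 90.5 and 759.5 CPM in Atp7b-/- liver, with a log2 fold change at -0.10 (SE 0.40, adjusted p = 0.943). The 12 listed male-biased liver genes, Sult2a8 among them, summed to 17600, 487 and 2720 CPM in wild type and 2700, 2580 and 5650 CPM in Atp7b-/- liver, highest in the paired-end library of each genotype; their part in the Sult2a8 values was not tested. Sult1a1, which sulfates phenols, had 151 ± 83.4 and 138 ± 18.2 CPM, Sult1d1 77.3 ± 64.6 and 69.9 ± 53.6 CPM, Sult5a1 16.1 ± 4.96 and 12.4 ± 4.83 CPM, and Sult1c2 4.14 ± 2.30 and 2.32 ± 0.205 CPM in wild type and Atp7b-/- liver (SD, n = 3). Their log2 fold changes lay between -0.86 and -0.09 and their adjusted p between 0.436 and 0.94 in edgeR.

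Papss2, which makes the sulfate donor PAPS, was at 143, 242.9 and 155 CPM in wild type and 159, 132 and 137 CPM in Atp7b-/- liver (log2 -0.32, SE 0.23, adjusted p = 0.578 by edgeR). Among the 7 tested of 21 other sulfation genes edgeR and DESeq2 called none (2 unadjusted in edgeR), and the median log2 fold change was -0.04. The smallest p belonged to Sult2a7 (log2 1.98, SE 0.67, adjusted p = 0.21) and to Slc26a1, a sulfate transporter of the hepatocyte (log2 -0.57, SE 0.20, adjusted p = 0.223). With wild type counts of 25, 2 and 3 Sult2a7 passed the filter only through the Atp7b-/- libraries, so its values add no support. Another 13 of the listed genes were below the filter. Several of them, named here after their values were seen, had counts almost only in wild type replicate 2, the library with high Xist. Sult3a1 was at 80.9 CPM there and at most 0.927 CPM elsewhere, Sult2a1 at 33.7 and at most 1.48 CPM, Sult3a2 at 27.1 and at most 0.185 CPM, and Sult2a2 at 13.4 CPM with no count in any other library. Sult2a1 and Sult3a1 are known female-biased genes of the mouse liver.

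Transporters that move conjugates and the regulators of these genes were read from lists of 10 and 14. Of 10 tested transporters edgeR and DESeq2 called none (1 unadjusted in edgeR), and the median log2 fold change was -0.04. Slco1a4, an uptake carrier of organic anions, differed by -0.98 in log2 units (adjusted p = 0.233 by edgeR) and the efflux pump Abcg2 by 0.81 (adjusted p = 0.364). Of 13 tested regulators edgeR called none (5 unadjusted) and DESeq2 called Nfe2l2 higher and Ahr and Por lower; 2 were above 0 and 11 below, with a median of -0.26. Nfe2l2, the gene of NRF2, was at 69.3, 35.3 and 25.8 CPM in wild type and 49.3, 52.9 and 129 CPM in Atp7b-/- liver, higher within each layout (log2 0.79, SE 0.19, adjusted p = 0.0789). Ahr, the receptor of dioxins, was at 60.5, 51.0 and 54.3 CPM in wild type and 26, 31 and 44.8 CPM in Atp7b-/- liver, where all values were below the wild type range (log2 -0.73, SE 0.19, adjusted p = 0.104).

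More conjugation genes differed between the sequencing layouts than between the genotypes. With genotype in the model, edgeR called 24 of the 33 genes different between the 2 paired-end and the 4 single-end libraries (72.7%, against 52.8% of all tested genes). They were higher in the paired-end libraries in 22 genes (66.7%, against 27.2%) and lower in 2 (6.06%, against 25.7%), Inmt and Nnmt. At least 4-fold higher were 10 of the 33 (30.3%, against 6.41%). The median layout difference was a log2 fold change of 1.59 among the conjugation genes and of 0.03 among all tested genes. Sult2a8 had the largest of the 33, 16.6-fold (log2 4.06, SE 0.42, adjusted p = 0.000281), followed by Ugt2b1 with 9.67-fold and Ugt2b5 with 9.48-fold. Conjugation genes took 1.37% and 1.19% of all counts in the paired-end libraries of wild type and Atp7b-/- and between 0.318% and 0.56% in the single-end libraries.

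GC content was recorded beside these values. The longest transcripts of the 33 genes had a median GC content of 43.6% (32.9% to 54%), and those of 12930 tested genes with a value one of 49.7%. Across genes, which are not independent replicates and share the same 6 libraries, the layout log2 fold change had a Pearson correlation with GC content of -0.81 and a Spearman correlation of -0.84 over the 33 genes, and of -0.70 and -0.75 over the 12930 genes. For the genotype log2 fold change the same correlations were 0.01 and -0.06 over the 33 genes and -0.17 and -0.23 over all. After an offset for GC content in each library, an alternative added after the data were seen, 10 of the 33 genes were called between layouts (30.3%) and 19.8% of all tested genes. Under this offset Inmt was still called for genotype (log2 -1.22, adjusted p = 0.0409 by edgeR) and Aox1 was not (log2 1.35, adjusted p = 0.0767).

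**Figure D5:**
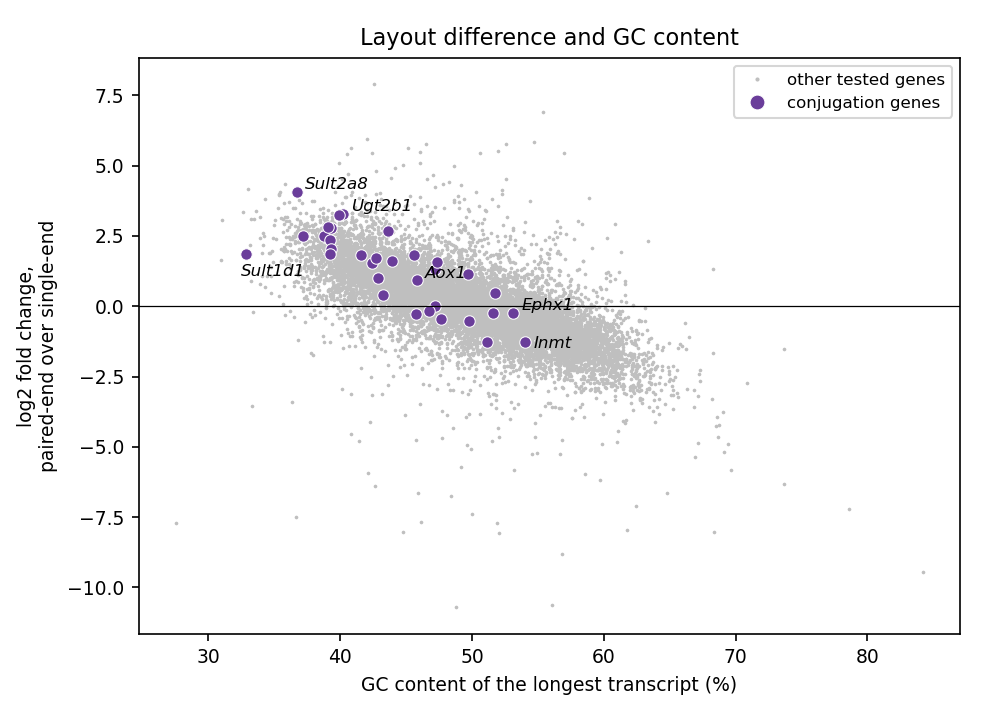
Log2 fold change of paired-end over single-end libraries against the GC content of the longest transcript, for the 33 conjugation genes (purple) and the other tested genes (grey). Sult2a8 at 36.7% GC has a layout difference of 4.06 and Inmt at 54% GC one of -1.29.

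Because labelled sex follows genotype within each layout, in opposite directions, a genotype change that differs between layouts and a difference between the labelled sexes are the same term. The labels did not match the sex chromosome genes in 2 libraries, so this term does not stand for sex by those genes. EdgeR called 2 of all tested genes for this term (0.0154%) and none of the conjugation genes; 9 of the 33 (27.3%) and 4.57% of all genes had an unadjusted p under 0.05. DESeq2 called 65 genes (0.5%) and likewise no conjugation gene. Since this term leaves each paired-end library with a coefficient of its own, the p-values rest on the single-end libraries. The direction of the genotype difference was the same in both layouts for 22 of the 33 genes (66.7%, against 58.1% of all tested genes). Aox1 had a log2 ratio of 1.64 between the single-end and 1.10 between the paired-end libraries, Inmt -1.31 and -1.19, and Ephx1 1.32 and 0.71.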

How the data were processed

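The values deposited by the authors are unnormalized whole-number counts, 1 row per Ensembl gene and 1 column per library. STAR 2.4, featureCounts, edgeR 3.8 and the build GRCm38 are named in the submitters' processing notes. Annotation release, strand setting, treatment of multimapping reads and whether a read pair counted once are not stated in the sources used here. All 6 columns were used, and 0 columns of other samples were present. Symbols, exon lengths and GC content came from GENCODE M21 (GRCm38), which named 40254 identifiers, and promoters from RefSeq (GRCm38.p6).

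Counts were tested with edgeR 4.0.16 in R 4.3.3: filterByExpr with a minimum count of 10, TMM factors, a quasi-likelihood model (robust) of layout plus genotype on all 6 libraries, and Benjamini-Hochberg adjustment over 12988 genes. SE is the size of the log2 fold change over the root of F. Levels are CPM with TMM factors; levels per kb use the union of exons. The edgeR model was also run on simulated counts with the same dispersion for every gene. That run does not cover the spread between these libraries, which differs from gene to gene. The alternatives were DESeq2 1.42.0, limma-voom 3.58.1, other size factors, filters and covariates, and leaving out each library. The members and lists were chosen with earlier results of these data known. Full statistics are given for members called or with an unadjusted p under 0.05, values per library for these and for the highest per kb in each role, and for each other list the called genes or the 2 with the smallest p.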

Additional observations from a re-analysis of the deposited data

How the results depend on the processing

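EdgeR called 323 genes, with 1 conjugation gene higher and 1 lower. With genotype alone, and with labelled sex replacing layout, edgeR called 0 genes and 0 conjugation genes either way (545 and 381 genes, and 4 and 1 conjugation genes, at an unadjusted p under 0.05). With single-end libraries only, 126 of 12205 tested genes were called (1730 unadjusted) and 0 of 33 conjugation genes (17 unadjusted). DESeq2 called 770 genes, with 6 conjugation genes higher and 2 lower, and limma-voom 396 genes, with 2 higher and 1 lower. With no filter on low counts 1116 of 25130 tested genes were called, with 8 of 34 conjugation genes higher and 3 lower. In edgeR 0 conjugation genes were higher and 1 lower with RLE size factors (324 genes, Aox1 adjusted p = 0.0507), with a minimum count of 30 (246 genes, 0.0501) and with the GC offset (331 genes, 0.0767). At an unadjusted p under 0.05 the same fits had 11, 11 and 13 conjugation genes, beside 1899, 1650 and 1922 of all tested genes. Leaving out 1 library gave 119 to 323 genes called, 0 to 3 conjugation genes higher and 0 to 1 lower, and 4 conjugation genes with ranges that do not overlap became 5 to 17 (15.2% to 51.5%), beside 11.5% to 37.7% of all tested genes. Shifts beyond 1.5 times came without wild type replicate 1 (131 genes, 17 ranges), wild type replicate 3 (7 ranges), Atp7b-/- replicate 1 (208 genes) and Atp7b-/- replicate 3 (119 genes, 9 ranges). For the difference between layouts DESeq2 called 65 genes, against 2, and the GC offset lowered the conjugation genes called between layouts from 24 to 10. Without wild type replicate 1 or Atp7b-/- replicate 3, the paired-end library that remained had a coefficient of its own in the model. The genotype test then rested on the 4 single-end libraries, as in the single-end fit. These settings are thus not separate checks. The cause of the shifts listed here was not tested. No fold change of the 11 genes with an unadjusted p under 0.05 changed sign under any of the 16 alternatives. These genes were chosen by p in the main fit, and the alternatives reuse the same libraries, so the kept signs add no support. No paired analysis was possible because replicate numbers follow the order of deposition.

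Only 3 libraries per genotype and 2 layouts limit what can be called; an exact permutation test of 3 against 3 cannot go below p = 0.1. Ugt1a genes, Ugt2b5, Ugt2b37, Ugt2b38 and Tpmt share 15.7% or more of their 54-base windows with other genes. For Xdh, Sult1a1, Ugt3a1, Ugt3a2 and Nat8 the share was 5.33% to 8.74%, and for the remaining conjugation genes at most 3.97%.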
